A study of Rattus norvegicus with 30 samples.

Results

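Livers of rats handled for 4 days were compared with livers of rats handled for 1 day, on 20 of the 30 arrays of the study, 10 per group and 1 array per rat. The 10 unhandled rats entered none of the differences. All animals were female Sprague-Dawley rats, an outbred stock, about 10 weeks old, and RNA came from a piece of the left liver lobe. Rats of both groups were weighed, held in a Broome restrainer and given water by oral gavage once a day, on 1 day or on 4 days, with blood drawn from a tail vein on the last of those days. The group handled for 1 day was killed on the next day and its samples are labelled 24 h, and the group handled for 4 days was killed 3 days later than the first and its samples are labelled 96 h. The groups are different animals, no group received a test compound, and no unhandled animals were killed with the later group. The number of days of handling and the day of necropsy therefore cannot be told apart. The question asked of this pair of groups was whether the response of the liver to handling depends on its duration.

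Liver tissue is mostly hepatocytes, which make bile acids from cholesterol, burn or build fatty acids, and secrete complement and acute phase proteins into the blood. Kupffer cells are the macrophages of the liver sinusoids and a main source of complement C1q, and T and natural killer (NK) cells patrol the same vessels. Restraint and blood sampling are known to raise glucocorticoid hormones, which act on both metabolic and immune genes, and liver metabolism also follows feeding and the daily clock. In RNA from whole tissue, fewer cells of a type and less RNA per cell cannot be told apart. The tissue was liver by its own genes: the 11 measured hepatocyte markers, such as Alb (albumin) and Apob, had mean intensities between 12.4 and 67.6 on arrays whose mean intensity is 1, and Cyp2c12, a gene typical of female rat liver, had a mean intensity of 43.8.

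No single gene could be called different between 4 days and 1 day of handling. The test was that of limma, which fits each probe set and steadies its spread with that of the others. Of 31042 probe sets, 0 (0%) were called at an adjusted p (Benjamini-Hochberg) under 0.1, and the smallest adjusted p was 0.454. The t-test of the methods and the exact rank-sum test also called 0 probe sets. At an unadjusted p under 0.001, 12 probe sets (0.0387%) were higher after 4 days and 18 (0.058%) were lower. At an unadjusted p under 0.05, 857 (2.76%) were higher and 897 (2.89%) lower, so that the number of weak differences was nearly even in both directions. The differences were small in size. The median absolute difference was 0.0996 on the log2 scale, and a size of 1.5-fold was exceeded by 305 probe sets and one of 2-fold by 13. The spread between rats was close in the groups, with a median standard deviation of 0.327 log2 units after 1 day and 0.342 after 4 days.

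The arrays nevertheless bounded most differences. The 95% confidence interval of the difference lay wholly within 1.5-fold in either direction for 69.2% of the probe sets, and within 2-fold for 96.9%. This depended on brightness. With the probe sets split into 4 equal groups by mean intensity, the shares bounded within 1.5-fold were, from the dimmest group to the brightest, 31.1%, 58.7%, 91.1% and 95.8%. A first call at the adjusted threshold would have needed a p of 3.22e-06. For a probe set of median spread this is a difference of 1.96-fold, or 2.81-fold in the dimmest group and 1.38-fold in the brightest. Smaller shifts were below the reach of the test for most probe sets and are described below as values with their intervals.

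**Figure D1:**
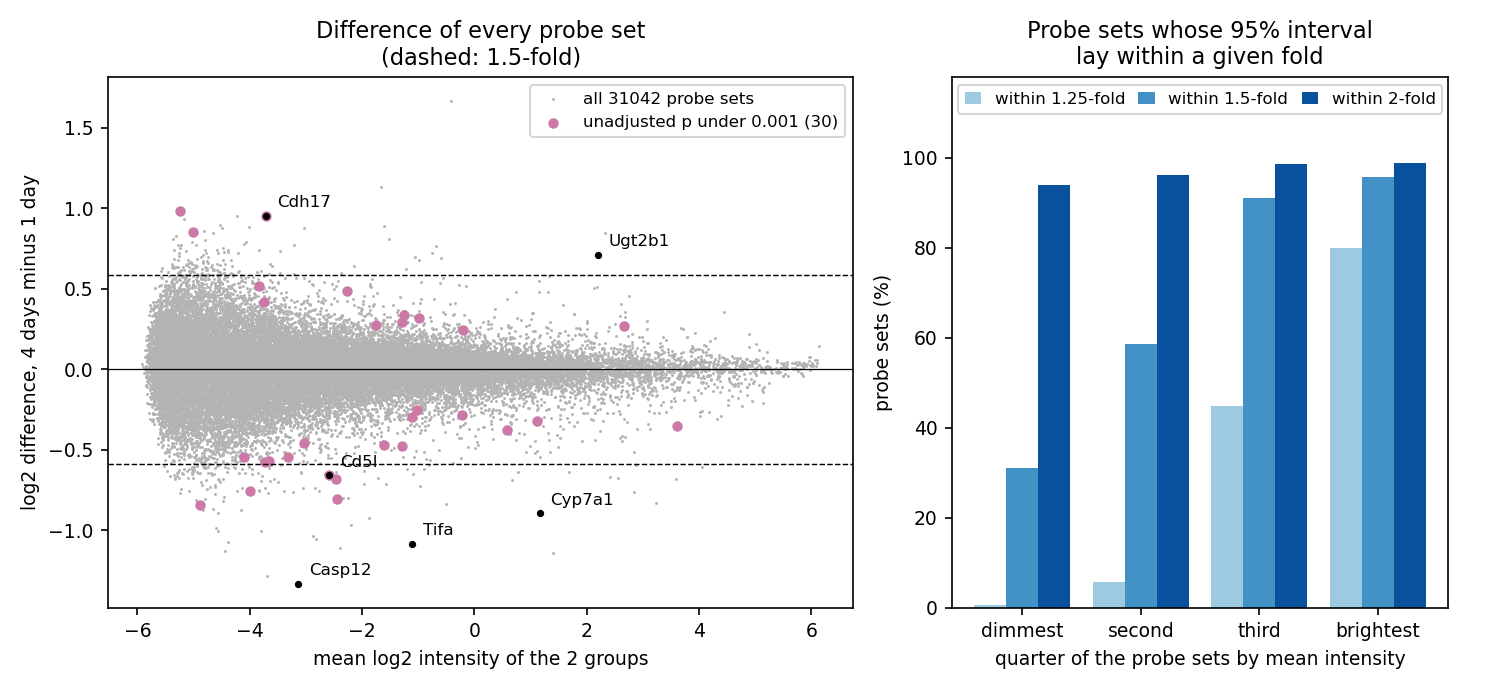
Left, log2 difference (4 days minus 1 day) of each of the 31042 probe sets against its mean log2 intensity, with the 30 probe sets at an unadjusted p under 0.001 in pink, 6 named genes in black and dashed lines at 1.5-fold. Right, percent of probe sets in each of 4 equal groups by mean intensity whose 95% interval lay within each of the 3 fold limits of the legend. The share within 1.5-fold went from 31.1% in the dimmest group to 95.8% in the brightest.

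With 31042 tests, 31 probe sets would be past an unadjusted p of 0.001 and 1552 past 0.05 if nothing differed, so that the 30 found at 0.001 are no more than that and the genes below are described, not called. Of these 30, 19 carry 1 gene symbol, 7 higher and 12 lower after 4 days. The smallest p belonged to a probe set of Cd5l, which encodes a protein secreted by macrophages. Its intensity was 0.164, 0.217 and 0.254 (lowest, median and highest) after 1 day and 0.0999, 0.132 and 0.180 after 4 days, a difference of -0.66 log2 units (SE 0.12, 95% interval -0.91 to -0.41, unadjusted p = 1.88e-05 in limma). The groups overlapped, with 7 of 10 rats after 4 days below every rat after 1 day. Rgs18, a regulator of G protein signalling in platelets and other blood cells, went from 0.297, 0.381 and 0.482 to 0.236, 0.273 and 0.354 and was lower by 0.47 (SE 0.09, p = 5.62e-05). Srgn, the proteoglycan of secretory granules in blood cells, was lower by 0.38 (SE 0.10), with a median of 1.69 after 1 day and 1.4 after 4 days. Csf2ra, a receptor chain for the growth factor GM-CSF, was lower by 0.29 (SE 0.08), with medians of 0.503 and 0.414. Mcpt10, which encodes a mast cell protease and has close relatives in the rat genome that could share its probes, was lower by 0.76 (SE 0.16) at low intensities, with medians of 0.0872 and 0.0454.

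Erg28, whose product scaffolds enzymes of sterol synthesis, was lower by 0.32 (SE 0.08), with 9 of 10 rats after 4 days below all rats after 1 day and medians of 2.41 and 1.89. A probe set of Fam32a was the only one of all 31042 whose groups did not overlap. It had 0.866, 0.919 and 1.19 after 1 day and 0.664, 0.792 and 0.847 after 4 days, a difference of -0.28 (SE 0.06). The brightest probe set of Fam32a differed by -0.18 (SE 0.07) and its groups did overlap. The dimmest one of this gene differed by 0.02, with an interval of -0.15 to 0.19. The lower ones also included Snx6, a sorting nexin, at -0.25, and at low intensities Dsg1, Fmod, Nkx2-2 and LOC102548459 at -0.54 to -0.58. The brightest probe set of Dsg1 differed by -0.02.

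Among the higher ones, Ccnd3, which encodes the G1 cyclin D3, went from 0.224, 0.274 and 0.335 to 0.294, 0.323 and 0.378 and was higher by 0.28 (SE 0.07, p = 0.000689 in limma). Its groups overlapped, with 8 of 10 rats after 1 day below every rat after 4 days. Tmem161a was higher by 0.29, Scaf4 by 0.32, Mcur1, a regulator of the mitochondrial calcium uniporter, by 0.25 and Tprn by 0.34. Cdh17, an intestinal cadherin, was higher by 0.96 (SE 0.22) at medians of 0.0588 and 0.110, which lie below the median of all probe sets, 0.121. A dim probe set of Dut, the enzyme that removes dUTP, was higher by 0.52, while its brightest probe set differed by -0.07 with an interval of -0.22 to 0.07.

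The view by gene groups used 45 lists with 710 measured genes, each gene read from its brightest probe set. Over all 14217 genes the median difference was 0.00, 49.2% were lower after 4 days, and 345 (2.43%) were higher and 427 (3%) lower at an unadjusted p under 0.05. Of 183 immune genes, 120 (65.6%) were lower after 4 days, and 21 (11.5%) were lower and 2 (1.09%) higher at an unadjusted p under 0.05. Of 42 bile acid genes 26 were lower, 3 of them (7.14%) at that threshold, and 1 was higher at it. Of the metabolic genes 144 (57.8%) were lower, 14 (5.62%) at that threshold, and 6 were higher at it. None of the 710 genes was called at an adjusted p under 0.1. When each rat in turn was left out, the count of lower genes at that threshold ran from 16 to 28 for immune, 2 to 6 for bile acid and 11 to 19 for metabolic genes. The immune count was 17 without replicate 1 of the rats handled for 1 day, 14 without the 4 arrays whose lowest intensities were raised, and 29 with the 3′ to 5′ ratio of the beta-actin control as a covariate. Of 28 rat genes looked up among those the study names as different from unhandled controls (its HLA-C was matched to no rat gene), 25 were measured, 16 lower and 9 higher, with a median of -0.04 and 6 lower and 1 higher at an unadjusted p under 0.05. They were chosen on these same samples, so this is not independent evidence. The medians of 16 of the 45 lists, all between -0.15 and 0.06, changed sign without some 1 rat or without those 4 arrays, among them hepatocyte complement, class II MHC, amino acid breakdown, clock, immediate early and exocrine pancreas genes. Genes of a list are not independent of each other, and the lists were not tested as sets.

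**Figure D2:**
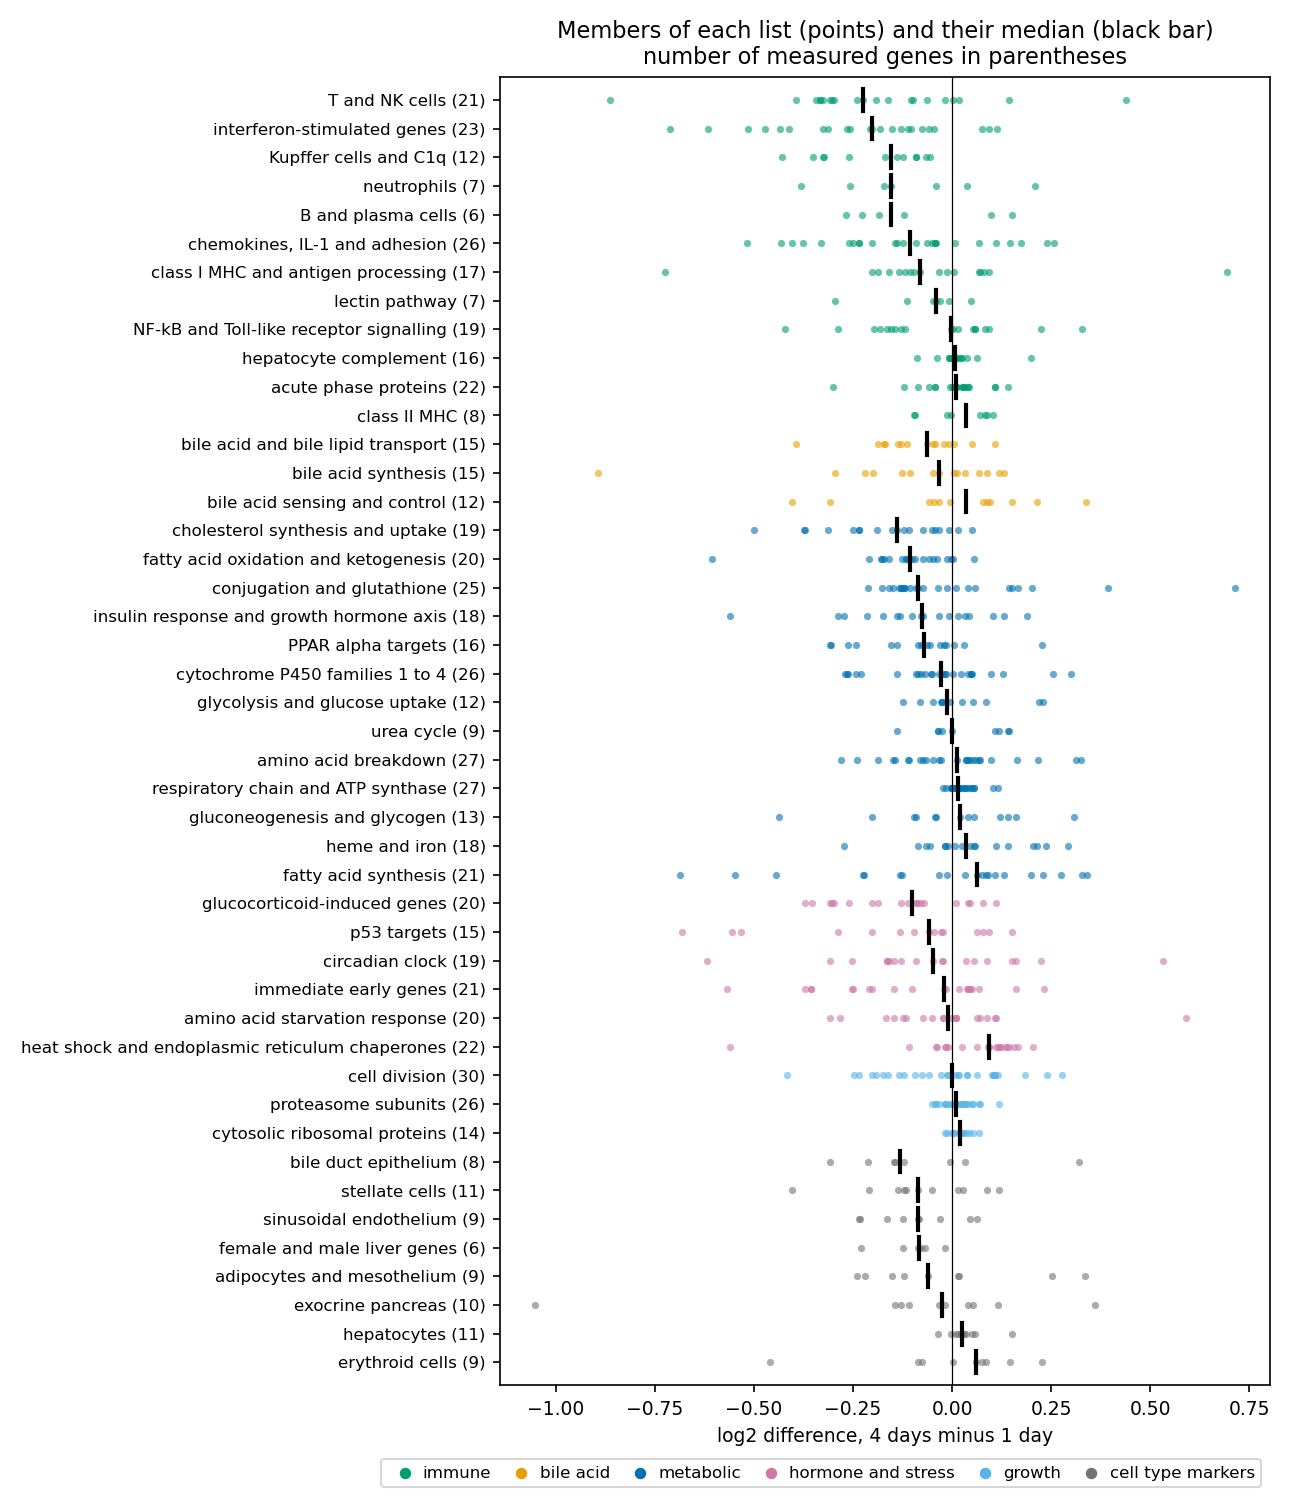
Log2 difference (4 days minus 1 day) of the measured members of the 45 lists, 1 point per gene, coloured by theme, with the median of each list as a black bar. The lowest medians are those of T and NK cells at -0.23, interferon-stimulated genes at -0.20 and the Kupffer cell and C1q list at -0.15, while hepatocyte complement, ribosomal protein and respiratory chain genes lie close to 0.

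The genes of Kupffer cells and C1q were all lower after 4 days, 12 of 12 measured genes, with a median of -0.15 and 5 of them at an unadjusted p under 0.05. The brightest probe set of Cd5l had 5.26, 7.01 and 11.5 after 1 day and 4.01, 5.23 and 6.70 after 4 days, lower by 0.43 (SE 0.12, 95% interval -0.69 to -0.17), or 1.35-fold. Rats of both groups lay between 5.26 and 6.70, while 6 of 10 rats after 1 day were above every rat after 4 days. C1qb and C1qc encode chains of C1q, which starts the classical complement pathway. C1qc had 2.71, 3.77 and 5.42 after 1 day and 2.61, 3.06 and 3.58 after 4 days, a difference of -0.35 (SE 0.11), and C1qb had medians of 3.66 and 2.97 and a difference of -0.33 (SE 0.10). The groups overlapped in both genes, and 7 of 10 rats after 1 day in C1qc and 6 of 10 in C1qb lay above all rats after 4 days. C1qa, the gene of the remaining chain, differed by -0.17, and its interval of -0.38 to 0.04 held 0. Clec4f, a lectin receptor of Kupffer cells, had 7.74, 9.78 and 11.1 after 1 day and 6.77, 7.66 and 9.33 after 4 days, lower by 0.26 (SE 0.08), and Cd68, a lysosomal protein of macrophages, was lower by 0.32 (SE 0.11).

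The summed intensity of the 12 Kupffer cell and C1q genes was 42.9, 49.5 and 63.4 (lowest, median and highest) after 1 day and 35.9, 43.0 and 48.0 after 4 days. None of the 12 was dimmer than the median probe set. In the mean deviation of the list per rat, 9 of 10 rats after 4 days lay below the median of the rats after 1 day, and 3 lay below all of them. Replicate 1 of the rats handled for 1 day was the highest of that group. Without it the median of the list was -0.10 with 5 genes at an unadjusted p under 0.05, and it was between -0.20 and -0.10 when each rat in turn was left out. With the beta-actin ratio as a covariate it was -0.25, and without the 4 arrays with raised lowest intensities -0.15.

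Genes of T and NK cells were lower in 17 of 21 cases, with a median of -0.23 and 7 genes at an unadjusted p under 0.05, all lower. Gzmk, a granule protease, had 0.199, 0.279 and 0.318 after 1 day and 0.189, 0.216 and 0.263 after 4 days, lower by 0.31 (SE 0.09). Nkg7, a granule membrane protein, was lower by 0.33, Klrd1, the NK receptor CD94, by 0.30, Prf1, perforin, by 0.30 and the chemokine gene Ccl5 by 0.34. Cd7 had medians of 0.285 and 0.178 and was lower by 0.39 (SE 0.12). Cd2, an adhesion receptor of T and NK cells, was lower by 0.86 (SE 0.28), but its intensities of 0.0150 to 0.0877 reach the lowest values of an array. Cd3e, a chain of the T cell receptor complex, differed the other way by 0.44 at an interval of -0.04 to 0.92. Other T cell genes of the list differed less than the granule genes. Cd3d differed by -0.225, Cd8b by -0.193, Cd3g by -0.098, Cd5 by -0.064 and Cd8a by -0.019. Lck differed by 0.002, Zap70 by 0.017 and Cd4 by 0.143, and the interval of each of these genes held 0.

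All 10 rats after 4 days lay below the median of the rats after 1 day in the mean deviation of the T and NK cell list. Replicate 10 of the rats handled for 4 days did so by almost nothing, at 0.150 against a median of 0.151. The next highest rat after 4 days was at 0.057. Of the rats after 1 day, 5 of 10 lay above all rats after 4 days. The summed intensity of the 21 genes was 3.41, 4.38 and 5.11 after 1 day and 2.92, 3.56 and 4.75 after 4 days. These genes are dim in whole liver, and 11 of 21 lay below the median probe set. The median of the list was between -0.29 and -0.16 when each rat was left out, -0.25 without the 4 arrays with raised lowest intensities and -0.05 with an offset of 0.2 added to the intensities, since an offset shrinks differences of dim genes.

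Interferon-stimulated genes, which encode proteins of the antiviral state, were lower in 20 of 23 cases with a median of -0.20, and 4 were lower at an unadjusted p under 0.05. Oas1a, an oligoadenylate synthase, had 0.239, 0.424 and 0.877 after 1 day and 0.142, 0.241 and 0.792 after 4 days, lower by 0.71 (SE 0.28, 95% interval -1.29 to -0.13). The groups overlapped, since replicate 8 of the rats handled for 4 days had 0.792, although 5 of 10 rats after 4 days lay below all rats after 1 day. Gbp2, a guanylate-binding protein, was lower by 0.52 (SE 0.24), with medians of 0.561 and 0.429. Mx1, an antiviral GTPase, was lower by 0.47 (SE 0.21), and Ifit3, which binds foreign RNA, by 0.43 (SE 0.18). Usp18, a brake on interferon signalling, differed by -0.62 with an interval of -1.35 to 0.12.

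The upstream sequences of 3 of these genes are shown because they hold the core letters of the interferon response element, a promoter motif known from interferon-stimulated genes. Each is the stretch of 150 bases just before the annotated start in RefSeq, with matches to GAAANNGAA on either strand in capitals, where overlapping matches run together.
Oas1a, GRCr8 chr12:41330316-41330465, plus strand: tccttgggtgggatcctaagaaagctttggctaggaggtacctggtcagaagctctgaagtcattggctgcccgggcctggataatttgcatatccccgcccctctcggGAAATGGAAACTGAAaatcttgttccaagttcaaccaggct
Ifit3, GRCr8 chr1:241527176-241527325, plus strand: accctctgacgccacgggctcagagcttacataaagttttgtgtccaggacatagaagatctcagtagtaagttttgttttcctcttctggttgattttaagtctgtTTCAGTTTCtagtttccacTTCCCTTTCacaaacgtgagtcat
Gbp2, GRCr8 chr2:234005577-234005726, plus strand: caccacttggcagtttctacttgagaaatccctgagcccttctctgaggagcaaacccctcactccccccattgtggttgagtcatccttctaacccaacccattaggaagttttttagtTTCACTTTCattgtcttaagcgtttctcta
The match nearest to the start ended 27 bases upstream in Oas1a, 16 in Ifit3 and 22 in Gbp2. Within 250 bases upstream, 12 of 16 list members in the RefSeq promoter table held the motif, against 2717 of 33469 promoters (8.12%), and Mx1 held none in this window. A match describes the sequence and was chosen after the values were seen.

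The interferon-stimulated genes varied widely between rats within each group. Their mean deviation per rat ran from -0.53 to 0.76 after 1 day and from -0.73 to 0.55 after 4 days, with medians of 0.04 and -0.18. Replicate 1 of the rats handled for 1 day was the highest of all. Without it, 1 of the 23 genes was lower at an unadjusted p under 0.05 and the median was -0.15, and without the 4 arrays with raised lowest intensities this count was also 1 and the median -0.11. Over all rats left out in turn the count was 1 to 7. With the beta-actin ratio as a covariate, 7 genes were lower at that threshold. The summed intensity of the list had medians of 66.0 in both groups. Most of this sum came from Ifi27 and Bst2, with mean intensities of 30.8 and 21.5 and differences of -0.06 and -0.11. It says little about the other genes.

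Chemokine, interleukin-1 and adhesion genes were lower in 19 of 26 cases, with a median of -0.11 and 4 genes at an unadjusted p under 0.05. Ackr4, a scavenging chemokine receptor, had 0.226, 0.350 and 0.451 after 1 day and 0.141, 0.251 and 0.373 after 4 days, lower by 0.52 (SE 0.18). Il1a, interleukin-1 alpha, had medians of 0.740 and 0.607 and was lower by 0.26 (SE 0.10), and its other probe set was lower by 0.64 (SE 0.17) with 9 of 10 rats after 1 day above all rats after 4 days. Icam2, an endothelial adhesion molecule, was lower by 0.20 (SE 0.07) and Ccl3, a macrophage chemokine, by 0.43 (SE 0.19). Of these 26 genes, 1 was lower at that threshold without the 4 arrays with raised lowest intensities, and between 3 and 7 when each rat in turn was left out, with 3 without replicate 1 of the rats handled for 1 day.

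Of the remaining immune lists, those of hepatocyte complement and acute phase proteins had medians near 0. The 16 hepatocyte complement genes had a median of 0.01, a range of -0.09 to 0.20 and no member at an unadjusted p under 0.05, and their summed intensity ranged over 391 to 454 in rats handled for 1 day and over 406 to 446 in rats handled for 4 days. The 22 acute phase genes had a median of 0.01, and Apcs, serum amyloid P, was higher by 0.11 (SE 0.05), from 33.5, 35.3 and 38.6 to 35.6, 38.6 and 40.4. In the lectin pathway of complement 6 of 7 genes were lower with a median of -0.04, and Fcna, a ficolin, was lower by 0.30 (SE 0.12). Class II MHC genes, with 8 members and a median of 0.03, had none past the threshold. Among 17 genes of class I MHC and antigen processing 11 were lower, with a median of -0.08, and only RT1-N2 passed the threshold. RT1-N2 was higher by 0.69 (SE 0.29), with 0.154, 0.453 and 1.12 after 1 day and 0.474, 0.870 and 1.21 after 4 days. RT1-CE16 differed by -0.72, with an interval of -1.61 to 0.16. Class I genes differ in sequence between outbred rats and resemble each other, and the part of alleles in these values was not tested.

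**Figure D3:**
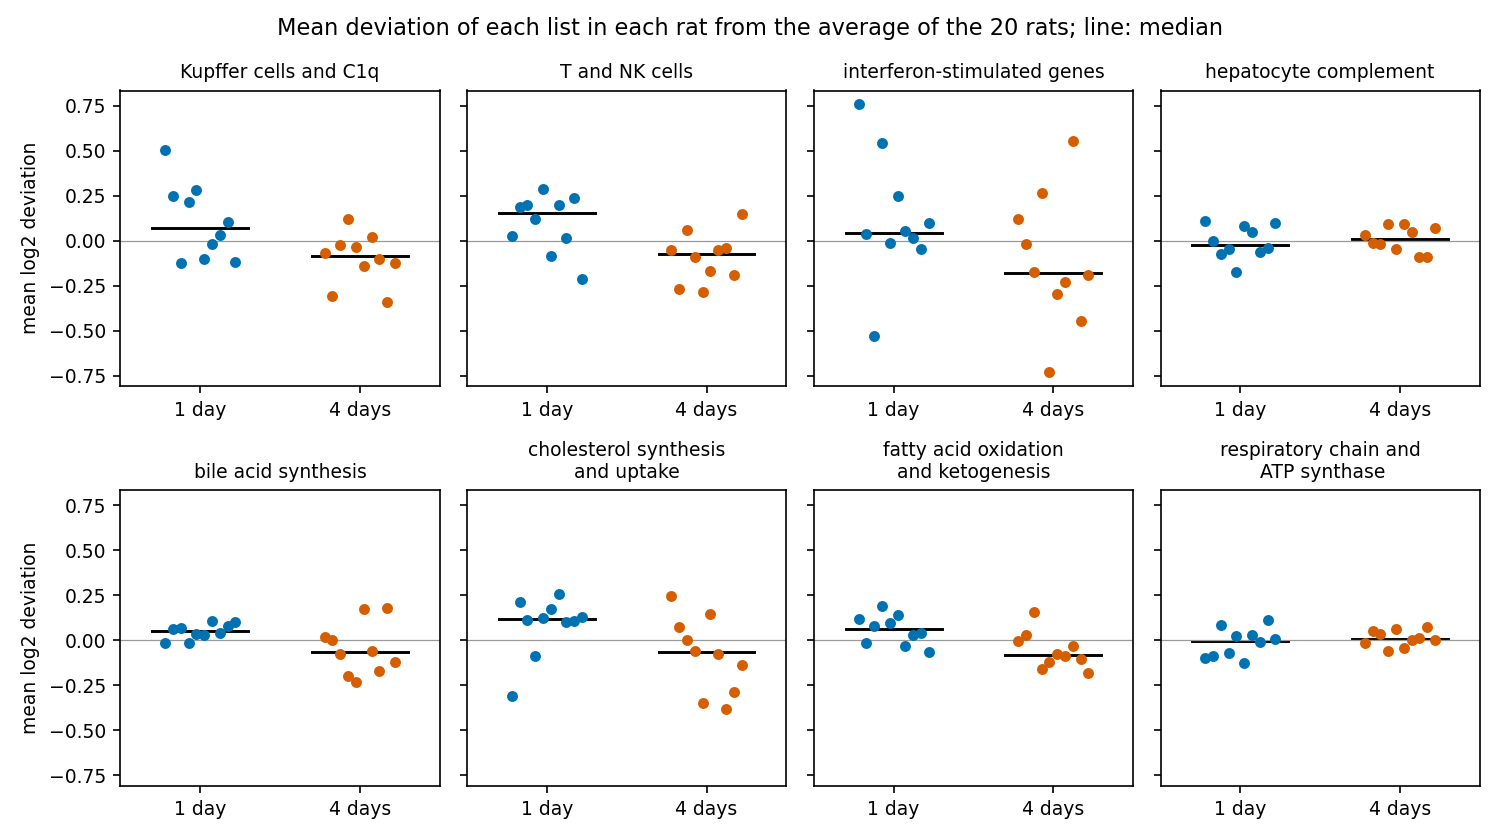
Mean log2 deviation of 8 lists in each rat from the average of the 20 rats, in order of replicate number within each group, with the group median as a line. The T and NK cell list has all 10 rats after 4 days below the median of the rats after 1 day, replicate 10 only just (0.150 against 0.151). The interferon-stimulated genes run from -0.53 to 0.76 after 1 day and from -0.73 to 0.55 after 4 days. Hepatocyte complement and respiratory chain genes stay near 0.

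Among bile acid genes Cyp7a1 had the largest difference. Cyp7a1, the rate-limiting enzyme that starts the conversion of cholesterol to bile acids, had 1.83, 2.98 and 5.0 after 1 day and 0.494, 1.51 and 5.56 after 4 days. The difference was -0.89 log2 units (SE 0.32, 95% interval -1.57 to -0.22, unadjusted p = 0.0118 in limma), or 1.86-fold. In 7 of 10 rats after 4 days the intensity was below that of every rat after 1 day, but replicates 2 and 6 had 3.71 and 5.56, and the value of replicate 6 was the highest of all 20. The standard deviation was 0.50 log2 units after 1 day and 0.95 after 4 days. Left out in turn, single rats moved the difference between -1.09 and -0.70.

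The other enzymes of the pathway differed less. Cyp8b1, which makes cholic acid, had 24.6, 33.0 and 40.4 after 1 day and 17.5, 30.5 and 36.2 after 4 days, and its difference of -0.20 had an interval of -0.44 to 0.05. Cyp27a1, which opens the alternative route, differed by -0.03 with an interval of -0.21 to 0.14. Cyp7b1 of the same route differed by -0.30 (-0.64 to 0.04) at low intensities. Hsd17b4, a peroxisomal enzyme of side chain shortening that also serves fatty acid oxidation, had 16.8, 18.5 and 20.1 after 1 day and 16.2, 17.1 and 18.9 after 4 days, lower by 0.11 (SE 0.05, p = 0.0481 in limma). Amacr, which acts before it, differed by -0.22 (-0.45 to 0.02). The 15 synthesis genes had a median of -0.03, 8 were lower, and in the mean deviation of the list 6 of 10 rats after 4 days lay below all rats after 1 day while replicates 6 and 9 lay above all of them. That mean deviation includes Cyp7a1, the member with the largest difference, and was not computed without it.

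Of 15 transport genes 12 were lower, with a median of -0.06 and 1 at an unadjusted p under 0.05. This was Abcb11, the pump that exports bile acids into bile, with 9.01, 9.99 and 11.2 after 1 day and 7.77, 8.91 and 10.9 after 4 days and a difference of -0.17 (SE 0.07), or 1.12-fold. In 5 of 10 rats after 4 days it was below all rats after 1 day. Abcc2, which exports conjugates, differed by -0.13 (-0.31 to 0.05), and Slc10a1, which takes bile acids up from the blood, by -0.06 (-0.20 to 0.08). Of the regulators, Nr1h4, the bile acid receptor FXR, differed by -0.06 (-0.26 to 0.14). Nr0b2, its target that represses Cyp7a1, had 0.970, 2.12 and 4.61 after 1 day and 0.932, 1.62 and 3.81 after 4 days and differed by -0.40 (-0.92 to 0.11), in the same direction as Cyp7a1. Hnf4a, a hepatocyte transcription factor, was higher by 0.15 (SE 0.06, p = 0.0288 in limma) in its brightest probe set, and the dimmer ones differed by -0.05 and -0.02.

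**Figure D4:**
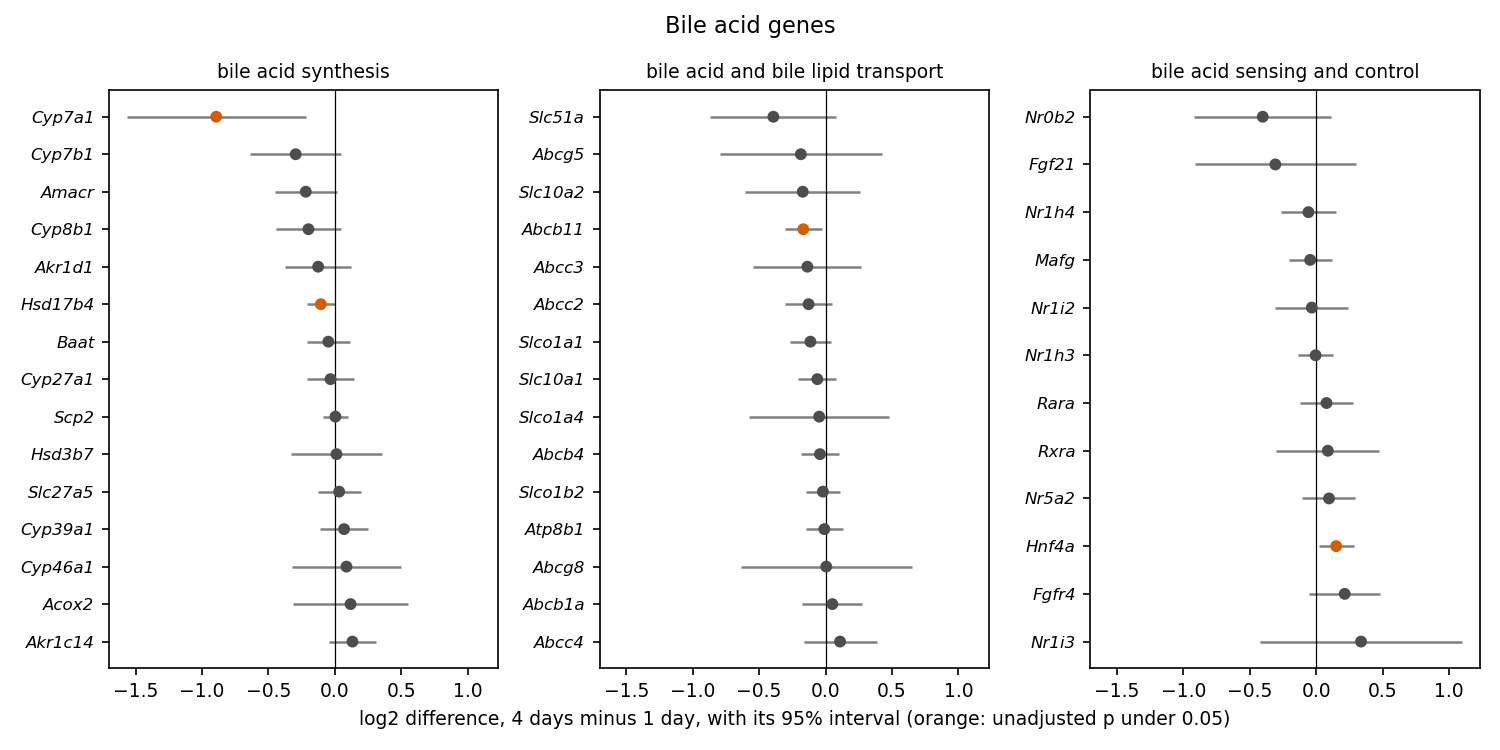
Log2 difference (4 days minus 1 day, points) with its 95% interval (lines) for the measured genes of bile acid synthesis, transport and control, in orange where the unadjusted p was under 0.05. Cyp7a1 stands apart at -0.89 with an interval of -1.57 to -0.22, and Abcb11, Hsd17b4 and Hnf4a are the other 3 in orange, at -0.17, -0.11 and 0.15.

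Of 19 genes of cholesterol synthesis and uptake 17 were lower, with a median of -0.14 and 3 at an unadjusted p under 0.05. Lss, which closes the sterol rings, had 0.483, 0.782 and 1.12 after 1 day and 0.323, 0.567 and 0.807 after 4 days, lower by 0.50 (SE 0.18), or 1.41-fold, and its dimmer probe set by 1.00. Fdft1, squalene synthase, had medians of 2.85 and 2.24 and was lower by 0.25 (SE 0.09), and Hsd17b7, of a later step, by 0.37 (SE 0.18). Insig1, which holds back sterol synthesis and is itself induced with it, differed by -0.37 (-0.76 to 0.01). Rats of both groups overlapped in each of these genes. Replicate 1 of the rats handled for 1 day was the lowest of its group in this list, and 7 genes were lower at that threshold without it, and 8 without the 4 arrays with raised lowest intensities. With the beta-actin ratio as a covariate 14 of the 19 genes were lower, 2 of them at that threshold. Over all rats left out in turn the count was 2 to 7.

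Of 20 genes of mitochondrial and peroxisomal fatty acid oxidation and ketogenesis 18 were lower, with a median of -0.11 and 6 at an unadjusted p under 0.05. Ehhadh, the peroxisomal bifunctional enzyme, had 11.3, 21.4 and 34.7 after 1 day and 6.79, 12.4 and 27 after 4 days, lower by 0.61 (SE 0.25), or 1.52-fold. Slc25a20, the carnitine-acylcarnitine carrier, had 3.61, 4.15 and 4.43 after 1 day and 3.22, 3.67 and 3.96 after 4 days, lower by 0.18 (SE 0.06), with 8 of 10 rats after 1 day above all rats after 4 days. Hadha, of the trifunctional protein, was lower by 0.16 (SE 0.06) in its brightest probe set, with differences of 0.25 and 0.23 in the dim ones. Also lower were Acads, which starts on short chains, by 0.12 (SE 0.05), Cpt1a, which admits fatty acids to mitochondria, by 0.18 (SE 0.08) and Eci1 by 0.21 (SE 0.10). In 9 of 10 rats after 4 days the mean deviation of the list was below the median of the rats after 1 day. Without the 4 arrays with raised lowest intensities 2 genes were lower at that threshold at a median of -0.09, and with the beta-actin ratio as a covariate 10 were. The 16 further targets of PPAR alpha, the fatty acid sensor that drives these genes, had a median of -0.07 and none past the threshold.

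**Figure D5:**
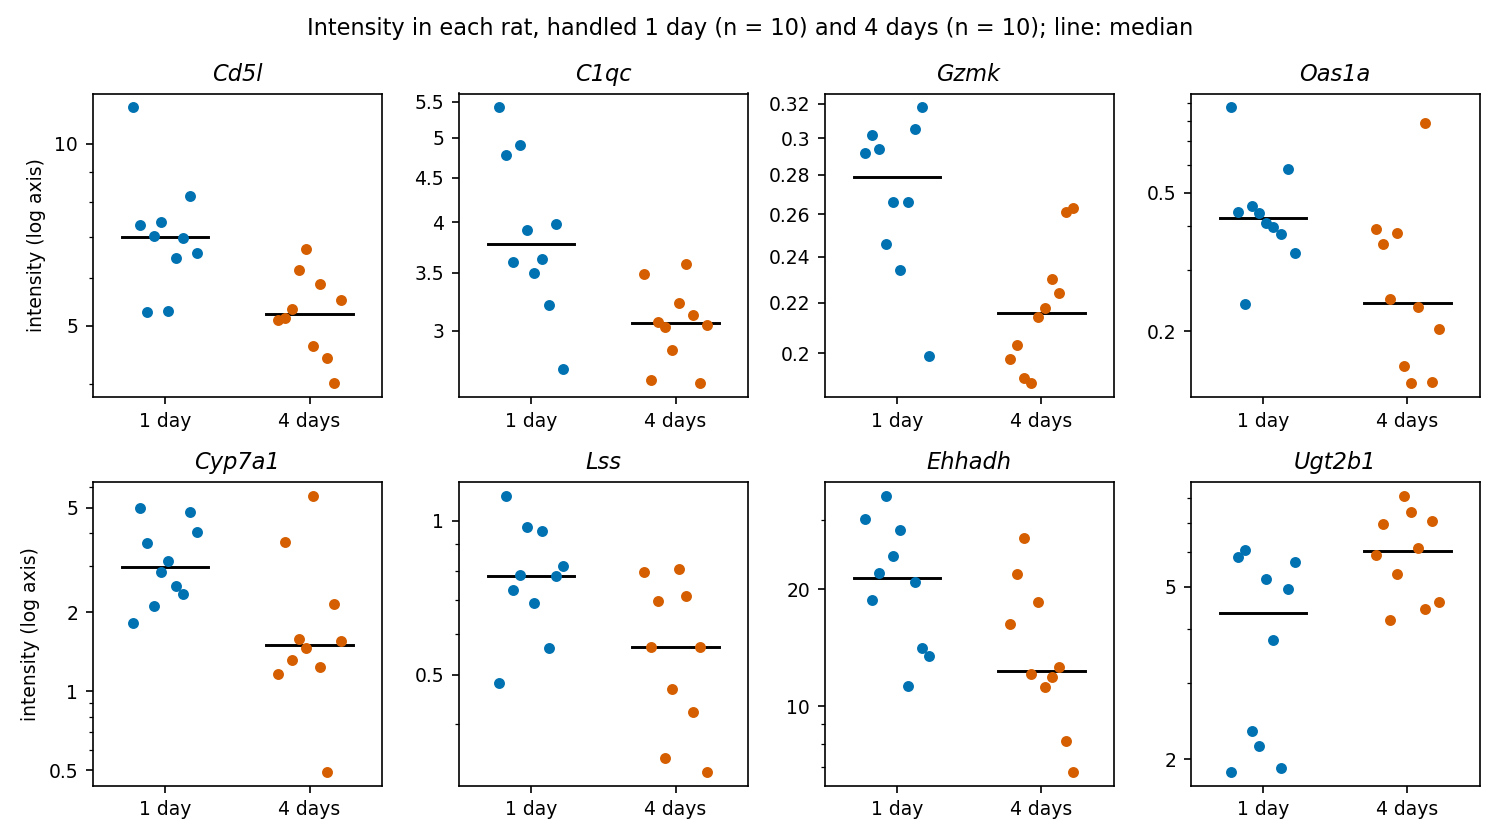
Intensity (log axis) of 8 genes in each rat, in order of replicate number within each group, with the group median as a line. In each gene the groups overlap; Cyp7a1 has medians of 2.98 and 1.51 but its highest value, 5.56, in a rat handled for 4 days, and Ugt2b1 falls into low and high rats after 1 day.

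Fatty acid synthesis was mixed. Of 21 genes 12 were higher and 9 lower, with a median of 0.06 and 2 genes past an unadjusted p under 0.05 in each direction. Without the 4 arrays with raised lowest intensities the median was -0.04, with 4 lower and 1 higher at that threshold, and without replicate 1 of the rats handled for 1 day 3 were lower and 1 higher. The lower ones work on chain length and double bonds, Elovl6 at -0.55 (SE 0.22, -0.15 in its dimmer probe set) and Fads2 at -0.45 (SE 0.18), and Scd, the stearoyl desaturase, differed by -0.69 with an interval of -1.54 to 0.17. The higher ones join fatty acids to glycerol, Dgat2 at 0.20 (SE 0.08), with 10.4, 12.7 and 15.3 after 1 day and 12.8, 14.6 and 17.3 after 4 days, and Gpam at 0.34 (SE 0.15). Foxo1, a transcription factor of glucose production, was higher by 0.31 (SE 0.13), with medians of 0.284 and 0.402, while its other probe sets differed by 0.61 and -0.14. Irs2, which relays the insulin signal, was lower by 0.27 (SE 0.12). In amino acid breakdown, 27 genes with a median of 0.01, Mccc1 of the leucine pathway was higher by 0.16. The 27 genes of the respiratory chain and ATP synthase had a median of 0.02 and a range of -0.02 to 0.12.

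Detoxification genes differed in single members. Ugt2b1, a glucuronosyltransferase, was higher by 0.71 (SE 0.24, 95% interval 0.21 to 1.21), with 1.87, 4.36 and 6.09 after 1 day and 4.19, 6.03 and 8.10 after 4 days. After 1 day 4 rats had between 1.87 and 2.32 and the other 6 between 3.77 and 6.09, and no rat after 4 days was in the lower range. Genes of this family resemble each other and may share probes. Gstm4, a glutathione transferase, was lower by 0.21 (SE 0.09). Of 26 cytochrome P450 genes, with a median of -0.03, Cyp2j4 was lower by 0.27 (SE 0.09) and Cyp4f1 higher by 0.13 (SE 0.06).

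The 20 glucocorticoid-induced genes had a median of -0.10, with 15 lower and 2 of them at an unadjusted p under 0.05. When each rat was left out the count was 1 to 4 and the median -0.20 (without replicate 10 of the rats handled for 1 day) to -0.06 (without replicate 3 of that group). Cebpb, a transcription factor, had 5.10, 6.55 and 8.47 after 1 day and 4.58, 5.47 and 6.77 after 4 days, lower by 0.26 (SE 0.10). In Cebpb 5 of 10 rats after 1 day lay above all rats after 4 days and the other 5 within their range. Errfi1, which restrains the EGF receptor, was lower by 0.31 (SE 0.13). The 19 clock genes had a median of -0.05 and ran from -0.62 to 0.53 with none past the threshold, and the 21 immediate early genes had a median of -0.02 and none. Of 15 p53 targets, Tp53inp1 at -0.68 (SE 0.19) and Plk3 at -0.56 (SE 0.21) were lower. Both are dim, with mean intensities of 0.0903 and 0.0745 against 0.121 for the median probe set. Tp53inp1 had 0.124 to 0.161 in replicates 1 to 5 of the rats handled for 1 day. Replicates 6 to 10 of that group, at 0.068 to 0.0879, lay within the 0.0468 to 0.0979 of the rats handled for 4 days. Heat shock and endoplasmic reticulum chaperones had the highest median of the lists, 0.09, with 15 of 22 higher. Dnajc3 had 6.94, 7.75 and 8.46 after 1 day and 7.62, 8.69 and 9.24 after 4 days, higher by 0.14 (SE 0.06), and Pdia4, a disulfide isomerase, by 0.17 (SE 0.08), with 7 of 10 rats after 4 days above all rats after 1 day.

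Among probe sets brighter than the median of all and with an unadjusted p under 0.05, these had the largest differences, beside Cyp7a1, Ugt2b1, Oas1a and others given above. Casp12, an inflammatory caspase, was lower by 1.33 (SE 0.63), with 0.0371, 0.296 and 0.830 after 1 day and 0.0163, 0.0602 and 0.370 after 4 days. Tifa, an adaptor of NF-kB signalling, had 0.292, 0.743 and 1.52 after 1 day and 0.180, 0.298 and 0.670 after 4 days, lower by 1.08 (SE 0.29), or 2.12-fold, and 6 of 10 rats after 1 day were above all rats after 4 days. Cela1, a pancreatic elastase, was lower by 1.05 (SE 0.41), while the 10 exocrine pancreas genes had a median of -0.03 and summed intensities of 1.77 to 3.77 and 1.26 to 3.47. The lower ones also held Ly6c at -0.74, a family with near copies, Upp1 at -0.74, Ten1 at -0.76 and a probe set of Sorl1 at -0.70. The brightness limit, 0.121, was applied to the mean over both groups. After 4 days the medians of Casp12 (0.0602), Cela1 (0.092), Ly6c (0.0947), Upp1 (0.11) and Ten1 (0.115) lay below it. Higher were Mbp at 0.70 (0.21 and -0.05 in its dimmer probe sets), Wnt10a at 0.54, Aplf at 0.50, Slc28a2, a nucleoside carrier, at 0.48 and Ero1b, an endoplasmic reticulum oxidase, at 0.48. Dusp6, a phosphatase of the MAP kinase ERK, was higher by 0.59 (SE 0.22) and 0.48 in dimmer probe sets, and its brightest one differed by 0.35 (-0.05 to 0.75). A probe set of Trak2 was higher by 0.56, and its brightest one differed by -0.08.

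Markers of the other cell types of liver were measured beside these groups. The 11 hepatocyte markers had a median of 0.03 and summed intensities of 504 to 542 after 1 day and 499 to 561 after 4 days. Of 9 markers of sinusoidal endothelium 7 were lower, with a median of -0.09 and summed intensities of 19.3, 21.0 and 22.7 after 1 day and 17.1, 19.9 and 21.4 after 4 days. Fcgr2b, an Fc receptor of these cells, was lower by 0.23 (SE 0.08), and Lyve1, a hyaluronan receptor, by 0.16 (SE 0.07). Stellate cell, bile duct, erythroid, B cell and neutrophil lists had medians of -0.09, -0.13, 0.06, -0.15 and -0.15, and none of their members passed an unadjusted p under 0.05. The neutrophil median was 0.14 without the 4 arrays with raised lowest intensities, and the erythroid one -0.05 without replicate 6 of the rats handled for 4 days. The part of the makeup of cells in the immune and metabolic values was not tested.

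RNA quality and array background were read from the arrays themselves. The log2 ratio between the 3′ and 5′ probe sets of the Gapdh control, which grows as RNA breaks down, ranged over 0.66 to 0.83 in rats handled for 1 day and over 0.70 to 0.96 in those handled for 4 days (permutation p = 0.582, two-sided). That of beta-actin was 2.85 ± 0.17 (SD, n = 10) after 1 day and 3.08 ± 0.31 (SD, n = 10) after 4 days, higher by 0.23 (permutation p = 0.0384, two-sided), and the p was above 0.05 when any 1 of 10 of the 20 rats was left out. Replicates 1 and 6 of both groups had lowest intensities of 0.0186 to 0.0203, where the other 16 arrays had 0.0134 to 0.0156. The part of RNA quality and of these 4 arrays in the values above was not tested beyond the fits with the ratios as covariates and without these arrays.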

How the data were processed

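Liver RNA of 20 handled rats (10 per group) was compared, out of 30 arrays in the series, on Affymetrix Rat Genome 230 2.0 arrays. The authors deposited linear intensities, with 1 value for each array and probe set, and every array has a mean intensity of 1. The methods name the GCOS software for quality control and for analysis of the arrays, and how it or another tool summarised probes into these intensities is not given in the sources used here. They also describe tests of log ratios to the control mean from Rosetta Resolver, which were not used here. Of 31099 probe sets, 57 controls were left out. Of the 31042 tested, 20826 carry 1 gene symbol in GEO's platform annotation (20812 found in the RefSeq table), 436 carry several, which leaves them unnamed, and 9780 have none in it. Intensities have no depth, so precision is set by the number of arrays. The p-values measure the spread between rats. All 30 columns of values matched a sample.

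Intensities were taken to log2 with no offset and fitted with the limma package 3.58.1 in R 4.3.3 (20 arrays, lmFit, eBayes, no covariate, two-sided). P-values were adjusted by Benjamini-Hochberg over the 31042 probe sets, with a call at an adjusted p under 0.1. The p of 0.001 is the threshold of the methods. Every difference is log2, 4 days minus 1 day, with its SE and 95% interval from this fit. The 3′ to 5′ ratios were compared by a permutation test of 100000 resamples in SciPy 1.17.1. Figures were drawn with matplotlib 3.10.9 in Python 3.11.15. The fit was tested on simulated data.

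The 45 gene lists held 849 entries, of which 738 were matched to a probe set, and each gene was read from its brightest probe set. The members and lists were chosen with earlier results of these data known, so their counts are descriptions and no list was tested. Genes were named by these rules: each probe set with 1 symbol at an unadjusted p under 0.001; the 10 largest differences in each direction at an unadjusted p under 0.05 above the median intensity; in each list at most 4 members at an unadjusted p under 0.05 with the smallest p; genes the study names and bile acid genes; and other probe sets of genes named by the first 3 rules. Those not printed by name are counted in their lists. C1qa, Cd68, Klrd1, Prf1, Ccl5, Cd3d, Cd3e, Cd3g, Cd4, Cd5, Cd8a, Cd8b, Lck, Zap70, Usp18, Ifi27, Bst2, RT1-CE16, Insig1, Cpt1a, Eci1 and Scd are named beyond them, after their values were seen. Promoter sequences are RefSeq's (GRCr8), from a table that held 16 of the 23 measured interferon-stimulated genes. The study did not pair the groups, so the fit has no block. What the replicate numbers stand for is not given. Same-numbered arrays shared some features. Replicates 1 and 6 of both groups had the raised lowest intensities. On the first principal component, the main axis of variation (8.19%), replicates 3, 8 and 9 were at 21.43, 23.97 and -30.6 after 1 day. After 4 days they were at 38.95, 26.42 and -27.38. Replicates 1 and 5 lay further apart, at 26.71 and -9.59 against 2.45 and 19.26. Replicates 2, 4, 6, 7 and 10 were at -12.63, -12.02, 12.62, -15.67 and -24.3 after 1 day. After 4 days the same numbers were at -4.31, -26.91, 12.28, -13.97 and -6.71. Only replicate 5 differed in sign between the groups. The source was not tested. Alternatives were offsets of 0.05 and 0.2, quantile and median normalization, all 30 arrays in 1 fit, a replicate block, array weights, an intensity trend with a robust prior, the methods' t-test, the rank-sum test, leaving out the dimmest 40% of probe sets, 1 probe set per gene, the mean over a gene's probe sets in lists, the Gapdh ratio as a covariate, and leaving out each rat. Leaving out 4 arrays with raised lowest intensities, the beta-actin ratio as a covariate and unequal variances were chosen after seeing the data.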

Additional observations from a re-analysis of the deposited data

Results flagged for a closer look

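In 22 of 308 groups of 10 values examined, 1 rat stood far from the other 9, and chance alone gives about 1 in 20 groups. No pattern among them was weighed.

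Among the rats handled for 1 day, replicate 1 was the lowest in Cdh17 (0.0212), in the second probe set of Il1a (0.142) and in Elovl6 (0.273), the highest in a probe set of Trak2 (0.5), and the lowest in the mean deviation of the fatty acid synthesis genes (-0.43). Replicate 3 was the highest in a probe set of Fam32a (1.19) and the lowest in Usp18 (0.197). Replicate 6 was the lowest in Cd3e (0.0200) and the highest in the mean deviation of the hepatocyte markers (0.02), a list whose spread was small. Replicate 9 was the highest in that of the urea cycle genes (0.22).

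Among the rats handled for 4 days, replicate 5 was the lowest in a probe set of Fam32a (0.664), in Usp18 (0.0741) and in Cyp8b1 (17.5) and the highest in Dusp6 (5.28). Replicate 2 was the lowest in Cdh17 (0.0564) and Slc28a2 (1.21) and the highest in Nr0b2 (3.81). Replicate 4 was the highest in Gbp2 (0.836) and the lowest in the mean deviation of the cytochrome P450 genes (-0.27). Replicate 9 was the lowest in Fads2 (1.54) and in a probe set of Sorl1 (0.0320). Replicate 3 had the highest log2 ratio between the beta-actin control's 3′ and 5′ probe sets (3.83).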

How the results depend on the processing

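Of 36 other settings, 2 gave a call at an adjusted p under 0.1. There was 1 call when replicate 5 of the rats handled for 1 day was left out (0 to 1 over the 20 rats), an unnamed probe set higher by 1.10 at an adjusted p of 0.0954 in limma (0.0954 to 0.93 over all fits). With the beta-actin ratio as a covariate 2 were called in limma, Tifa at -1.54 (adjusted p = 0.0519, 0.0519 to 0.93 over all fits) and an unnamed one at -0.98 (adjusted p = 0.0809, 0.0809 to 0.88 over all fits). At an unadjusted p under 0.001 there were 51 probe sets with an offset of 0.2 and 18 with 1 probe set per gene, where 14217 are tested, and 874 then passed a p under 0.05. Leaving out each rat gave 21 to 43 at 0.001, of which 17 to 24 were among the 30, and 1616 to 1927 at 0.05. Without the 4 arrays with raised lowest intensities 37 passed 0.001 and 7 were among the 30. Leaving out 4 other arrays was not run, and the cause was not tested. The replicate block gave 0 called, 36 at 0.001 and 2014 at 0.05, where the main fit gave 30 and 1754. Same-numbered rats had correlations of deviations of -0.04 to 0.17 (median 0.03, 2 of 10 over 0.1), and 2 of 10 rats were nearest to their own number. The share of intervals within 1.5-fold was 66.8% to 67.9% when a rat was left out, but 97.9% with an offset of 0.05, which shrinks differences of dim probe sets. The difference in the Gapdh ratio, 0.02, was -0.002 to 0.027 when a rat was left out, and -0.002 without replicate 3 of the rats handled for 4 days, and that in the beta-actin ratio was 0.146 to 0.268. Of 106 probe sets named with a value and followed over the settings, 90 had an unadjusted p under 0.05. None of these 90 differences reversed under the settings that gave a value. The 90 have a small p in the main fit, and the settings reuse its arrays, so that a reversal was unlikely from the start. The t-test, rank-sum and unequal-variance settings carry the same difference as the main fit. The count is therefore no independent evidence. Settings chosen after seeing the data were the beta-actin covariate, the 4 arrays left out and unequal variances, which gave 39 at 0.001. The median of 1 list, T and NK cells, moved by more than the spread between rats, to -0.05 with an offset of 0.2. The limits of the data are their 10 rats per group, the dim probe sets with wide intervals, and the shared change of day and handling.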
